A study of Mus musculus with 6 samples.

Results

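Gata4, Gata5, Gata6, Zfpm2, Nkx2-5 and Hand2 are genes of the transcription factor circuit that specifies heart muscle. They were taken from the table of nuclear RNA by gene name, and 5 of the 6 genes were found among 28660 loci. Zfpm2, which encodes the Gata4 cofactor also called FOG2, was not analysed here. The RNA came from nuclei of HL-1 cells, an immortalised mouse cardiomyocyte line derived from an atrial tumour, grown in Claycomb medium with serum, glutamine and norepinephrine. No treatment or genotype distinguished the samples. Nuclei were split biochemically into chromatin pellet and soluble extracts, each sequenced in 3 libraries, and the authors pooled the libraries of a fraction into 1 value per locus. The comparison asks how the RNA of a gene divides between chromatin and the soluble nuclear contents.

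Gata factors bind DNA through a pair of zinc fingers. In the heart, Gata4 acts together with the homeodomain factor Nkx2-5, T-box factors and the cofactor FOG2 on genes of the contractile apparatus. Hand2 is a basic helix-loop-helix factor that binds DNA as a dimer with the E proteins Tcf3, Tcf4 and Tcf12, and is known for its role in the right ventricle and outflow tract. Hand2 has neighbouring long noncoding RNAs: Upperhand, here called Hand2os1 after RefSeq, is transcribed away from the Hand2 start, and Handsdown lies on the other side of the gene.

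The stretch upstream of Hand2 is shown because the pair of transcripts with the highest levels in this region start inside it and right after it. RefSeq (GRCm38.p6) places the Hand2 start at base 57320983 of chromosome 8 on the plus strand and the Hand2os1 start at base 57320859 on the minus strand, with 123 bases between them. The 250 bases before the Hand2 start are chr8:57320733-57320982, plus strand. Capitals mark the 123 bases between the starts, and the 127 lower-case bases lie inside Hand2os1.
Hand2 upstream: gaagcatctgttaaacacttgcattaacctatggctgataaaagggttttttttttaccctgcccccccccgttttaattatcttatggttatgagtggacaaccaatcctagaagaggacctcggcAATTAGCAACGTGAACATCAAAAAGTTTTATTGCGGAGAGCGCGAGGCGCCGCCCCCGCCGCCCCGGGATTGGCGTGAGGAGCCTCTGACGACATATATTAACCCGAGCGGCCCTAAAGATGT
On either strand it holds 2 matches to the Gata motif AGATAA, counted also with T as its first base, G as its last base, or both. They begin 215 and 172 bases before the start, both in the part inside Hand2os1. Of 32851 RefSeq promoter stretches of this length, 26.5% hold at least 1 such match. The E-box CANNTG also has 2 matches here and is found in 66.2% of the stretches. One of them, beginning 235 bases before the start, overlaps the single match to the Nkx2-5 motif core AAGTG, which 40.7% of the stretches hold. The stretches before Nkx2-5 and Gata5 each hold 1 E-box match, and neither the Gata motif nor AAGTG. The T-box motif AGGTGT, held by 11.8% of the stretches, has 0 matches before Hand2, Nkx2-5 and Gata5. Sequences were matched for these 3 of the 6 genes. A match is a description of letters and no evidence of binding.

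All 5 measured genes were expressed, and none differed by 2-fold or more between the fractions once the pellet was rescaled to the spike-ins. The 3 Gata messages lay slightly towards the pellet, at log2 folds of 0.51 to 0.62, and Nkx2-5 and Hand2 slightly towards the soluble fraction, at -0.51 and -0.69. Levels are FPKM, fragments scaled to transcript length and library size, which can be compared between genes. A fold is the log2 of pellet FPKM times 3.37 over soluble FPKM, where 3.37 is the factor between the fractions over 82 synthetic ERCC spike-ins, and is called the rescaled fold (the spike-in scale of the plots). On the FPKM scale, which leaves the factor out, each log2 fold drops by 1.75 and all 5 genes are more than 2-fold lower in the pellet. The direction of the Gata folds therefore depends on the factor, which assumes equal spike-in amounts in both fractions.

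With 1 pooled value per fraction, no replicate error can be given and no test was made. Library depth is unknown, since FPKM keeps no read numbers. The scatter of the spike-ins is the only error the table allows. Around the common factor, the SD of their log2 values was 0.12 (n = 47 spike-ins) at a mean of at least 0.5 FPKM, and 0.09 (n = 25) at 5 FPKM or more, where all 5 genes lie. The corresponding SD for a difference between a pair of folds is 0.13 at that level. This scatter is technical and leaves out the spread between cultures and between fractionations.

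Gata4, a factor needed for ventral closure and growth of the heart tube, had the highest level of the Gata genes. Its locus (ENSMUSG00000021944.11, chromosome 14, 63198922 to 63271692) had 77.5 FPKM in the soluble fraction and 35.3 FPKM in the pellet. After rescaling, 60.5% of its total nuclear signal was in the pellet. Gata4 lay above 91.3% of the 11397 tested protein-coding loci in soluble FPKM and above 96.2% in pellet FPKM. Its fold of 0.62 is 1.53-fold on the linear scale.

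Gata6, a relative with roles in heart, endoderm and smooth muscle, was 4.29-fold lower than Gata4 in each fraction. The Gata6 locus (ENSMUSG00000005836.8, chromosome 18, 11049087 to 11085635) had 18.1 FPKM in the soluble fraction and 8.21 FPKM in the pellet. Its log2 fold of 0.62 and its pellet share of 60.5% were the same as those of Gata4 to the digits given. The pair thus divided alike between the fractions at different levels.

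Gata5, known from endocardial and outflow valve development, had the lowest level of the 5 genes, with 9.65 FPKM in the soluble fraction and 4.06 FPKM in the pellet (ENSMUSG00000015627.5, chromosome 2, 180325133 to 180340732). This was 8.04-fold below Gata4 in the soluble fraction and 8.69-fold below it in the pellet. Its pellet share was 58.7% and its log2 fold 0.51. The 0.11 between it and each of the other Gata folds is within the spike-in SD of a difference.

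Nkx2-5, the homeodomain factor that marks early heart progenitors and working atrial and ventricular muscle, had 65.0 FPKM in the soluble fraction and 13.54 FPKM in the pellet (ENSMUSG00000015579.4, chromosome 17, 26838664 to 26841565). Gata4 exceeded it by only 1.19-fold in the soluble fraction but by 2.60-fold in the pellet. The pellet held 41.3% of the Nkx2-5 signal. Its log2 fold lay 1.02 below that of Gata5 and 1.13 below those of Gata4 and Gata6.

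Hand2 had the highest soluble level of the 5 genes, at 127.3 FPKM, and 23.4 FPKM in the pellet (ENSMUSG00000038193.3, chromosome 8, 57320983 to 57324517). In the soluble fraction it was 1.64-fold above Gata4, and in the pellet Gata4 was 1.51-fold above it. The order of these 2 genes therefore turned between the fractions. The pellet held 38.3% of the Hand2 signal, the lowest share of the 5. Its fold was 0.18 below that of Nkx2-5, a gap above the spike-in SD of a difference.

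**Figure D1:**
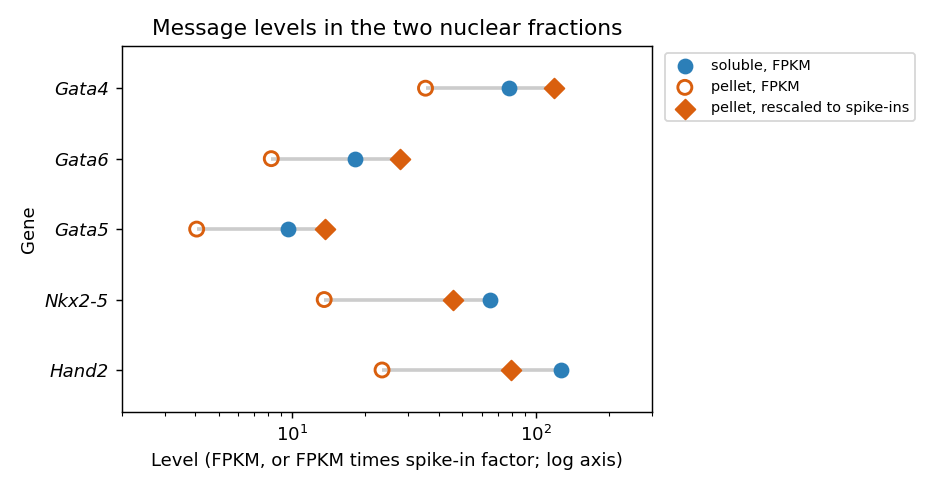
Level of each gene (horizontal log axis) in the soluble fraction in FPKM, in the pellet in FPKM and in the pellet after rescaling to the spike-ins; each point is 1 pooled value with no replicate error. The rescaled pellet lies above the soluble value for the 3 Gata genes and below it for Nkx2-5 and Hand2, while the pellet FPKM is below the soluble FPKM for all 5.

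Over all 10 pairs, the difference of folds within the Gata genes was at most 0.11, and between a Gata gene and Nkx2-5 or Hand2 it was 1.02 to 1.31. These differences do not depend on the spike-in factor, which is the same for every gene. In soluble FPKM the order was Hand2, Gata4, Nkx2-5, Gata6 and Gata5, and in pellet FPKM Gata4, Hand2, Nkx2-5, Gata6 and Gata5. Which neighbours in these orders differ beyond the spread of cultures cannot be said from pooled values.

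Against the whole table these folds are moderate. A locus was tested where its FPKM averaged at least 0.5 over the fractions. Of 13917 such loci, 31.9% were higher in the pellet by 2-fold or more and 10.5% were lower by as much, against 0 of 5 and 0 of 5 here. On the FPKM scale, without the factor, 61.2% of tested loci were at least 2-fold lower and 9.66% at least 2-fold higher, against 5 of 5 and 0 of 5. Tested protein-coding loci had a median of 0.26 for the rescaled log2 fold, with quartiles at -0.43 and 0.97. The 3 Gata genes lay above that median and below the upper quartile, higher than 59.3% to 63.6% of these loci. Hand2 lay above 17.4% of them and Nkx2-5 above 22.5%, both below the lower quartile.

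**Figure D2:**
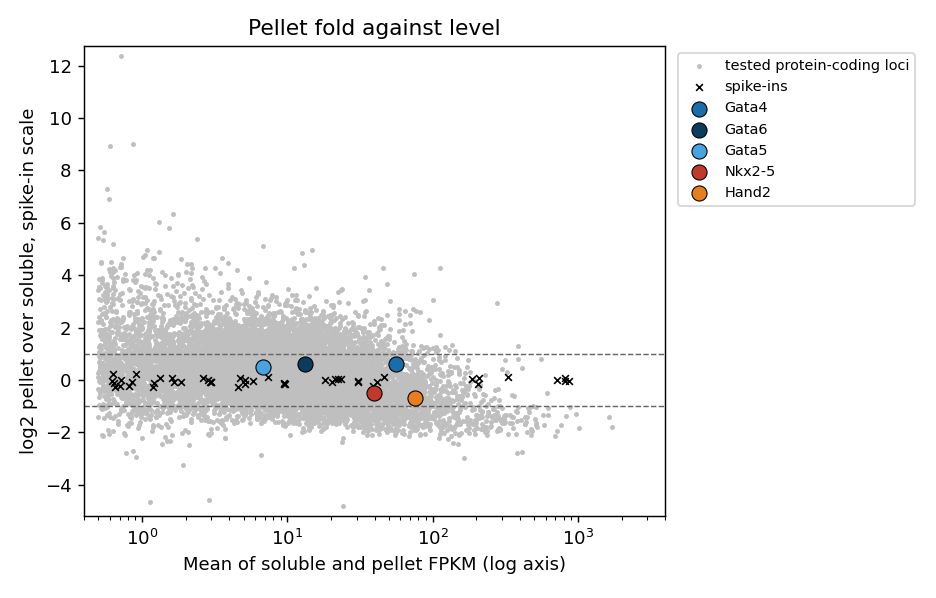
Log2 pellet over soluble after rescaling (vertical axis) against the mean of soluble and pellet FPKM (log axis) for tested protein-coding loci (grey), spike-ins (crosses) and the 5 genes (coloured). Dashed lines mark 2-fold, and all 5 genes lie between them, the Gata genes at 0.51 to 0.62 and Nkx2-5 and Hand2 at -0.51 and -0.69.

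The genes also differ in size, which moved with the fold over tested protein-coding loci. Among tested protein-coding loci with a RefSeq span (94.1% of them), those under 10 kb had a median log2 fold of -0.44 (n = 2486), those of 10 to 50 kb 0.22 (n = 5205), those of 50 to 200 kb 0.71 (n = 2548) and those over 200 kb 1.17 (n = 487). Hand2 spans 3535 bp and Nkx2-5 6325 bp, and their folds lay above 39.6% and 47.1% of the loci under 10 kb. Gata5 spans 10416 bp and Gata6 33127 bp, above 62.7% and 66.6% of the loci of 10 to 50 kb. Gata4 spans 72799 bp and lay above 45.2% of the loci of 50 to 200 kb. All 5 were inside the interquartile range of their own span class. For Gata5, which lies close to the 10 kb edge, this depends on the edge. Its fold of 0.51 is above the upper quartile of 0.26 of the loci under 10 kb. The part of gene span in the difference between the Gata genes and the other 2 was not tested.

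**Figure D3:**
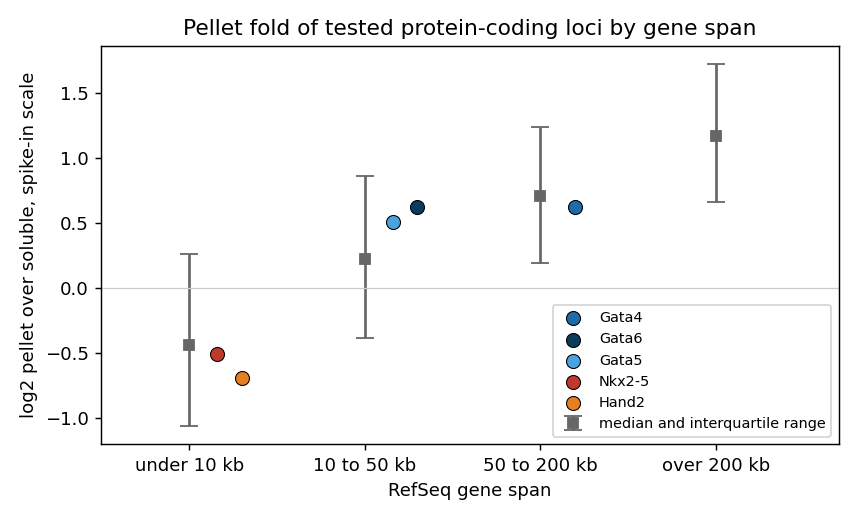
Median log2 pellet over soluble after rescaling of tested protein-coding loci in 4 classes of RefSeq gene span (squares, bars show the interquartile range), with the 5 genes drawn beside the class they belong to. The class medians run from -0.44 under 10 kb to 1.17 over 200 kb, and each gene falls inside the bar of its class.

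The noncoding RNAs around Hand2 lay further towards the pellet than its message, with 1 exception. Within 100 kb of Hand2 the table lists 7 loci, all noncoding and all tested. Of these, 5 were higher in the pellet by 2-fold or more and 0 lower, beside 63.7% and 3.38% of tested long intergenic, antisense and processed noncoding transcripts together. On the FPKM scale 2 were higher and 1 lower, beside 28.7% and 31.1%. The count of 5 in 7 is thus near the share of these RNA types. Of the 7 folds, 6 exceeded that of Hand2. Each row is counted as a locus of its own, although some of the 7 are versions of the same Ensembl identifier.

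AV026068, the locus whose span (57304265 to 57320859) matches RefSeq Hand2os1, was the most abundant of them, with 175.9 FPKM in the soluble fraction and 99.6 FPKM in the pellet. It thus exceeded the Hand2 message in both fractions. Its log2 fold of 0.93 was 1.62 above that of Hand2. The sequence printed above puts the starts of Hand2os1 and Hand2 side by side. A second locus named Uph, 32470 bp from Hand2 and outside all RefSeq genes, carries the same Ensembl identifier in another version. It had 3.61 FPKM in the soluble fraction and 16.3 FPKM in the pellet, a log2 fold of 3.93, the highest in this region.

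On the other side of Hand2, the Handsdown gene is likewise listed under 2 versions of 1 identifier. The part named 5033428I22Rik, 7175 bp from Hand2, had 9.10 FPKM in the soluble fraction and 10.8 FPKM in the pellet, a log2 fold of 2.0. The part named RP24-459A4.7, 16283 bp away, had 7.46 and 19.6 FPKM, a log2 fold of 3.15. RP24-459A4.8, which shares its coordinates with the first part, was the exception, with 40.2 and 7.12 FPKM and a log2 fold of -0.74, close to Hand2 itself. RP24-130A20.1, 78587 bp away, had 1.42 and 0.935 FPKM with a log2 fold of 1.15. Gm28063, typed as antisense, shares the coordinates of Hand2 and had 2.10 and 3.28 FPKM, a log2 fold of 2.40. RefSeq lists Gm28063 as a synonym of Hand2os1. How the authors divided fragments among loci with the same coordinates, and whether strand was used, is not stated in the labels or the table.

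The RNAs that share coordinates with Gata6 and Gata5 also had larger folds than the messages. This is the direction of their RNA types. Of tested long intergenic, antisense and processed noncoding transcripts together, 63.7% were higher in the pellet by 2-fold or more and 3.38% lower. 1010001N08Rik, the RNA now named Gata6os, shares the Gata6 coordinates and had 1.13 FPKM in the soluble fraction and 1.92 FPKM in the pellet. Its log2 fold of 2.51 was 1.90 above that of Gata6. Gata5os shares the Gata5 coordinates and had 0.253 and 0.444 FPKM. Its log2 fold was 2.57, but its mean was under 0.5 FPKM, where the spike-in SD is 0.37 (n = 16). On the FPKM scale the log2 folds were 0.76 for 1010001N08Rik and 0.81 for Gata5os, both under 2-fold. These values depend on how fragments were divided between each RNA and its message.

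Noncoding loci of the Tbx5-dependent type, named for a T-box partner of these factors, lay within 100 kb of 3 of the 5 genes. There were 11 near Gata6, 6 near Nkx2-5 and 5 near Gata4, and 0 near Gata5 and Hand2. Over the 11397 tested protein-coding loci, 8.77% had at least 1 such locus within that distance, 0.412% at least 5 and 0.105% at least 11. The sources used here do not say how the authors selected them.

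Near Gata6 all 11 loci were higher in the pellet by 2-fold or more, with or without the spike-in factor. Over all 849 Tbx5-dependent loci, whatever their level, 93.5% were higher and 0.471% lower after rescaling, and 76.7% were higher and 5.54% lower on the FPKM scale. Their median log2 fold was 5.01, with a range of 4.29 to 5.79, above the upper quartile of 4.70 over all 849, whose median was 4.0. The lowest of the 11 was 3.67 above the fold of the Gata6 message. Of the 11, 10 lie at lower coordinates than Gata6 and 1 at higher coordinates.

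Their levels were low. The pellet held 0.0426 to 1.32 FPKM (median 0.459) and the soluble fraction 0.00447 to 0.140 FPKM (median 0.0491), so that 1 of the 11 reached a mean of 0.5 FPKM. That one, XLOC_025364 (11022446 to 11025686, 23401 bp from Gata6 and outside RefSeq genes), had 0.140 FPKM in the soluble fraction and 1.32 FPKM in the pellet, a log2 fold of 5.0. The Gata6 message was 6.20-fold above it in pellet FPKM and 129.2-fold above it in soluble FPKM. XLOC_025369, the nearest at 5495 bp, overlaps RefSeq Gata6os and had 0.0750 and 0.557 FPKM, a log2 fold of 4.65. XLOC_025368, 12156 bp away, had 0.108 and 0.626 FPKM and a log2 fold of 4.29, the lowest of the 11.

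Further from Gata6, 6 of the loci overlap the RefSeq lncRNA Gm35814. They are XLOC_026332 (log2 fold 5.79, the highest), XLOC_026342 (4.50), XLOC_026349 (5.27), XLOC_026350 (4.95), XLOC_026351 (5.06) and XLOC_026360 (5.21). Each is counted as a locus of its own above, and whether the 6 are pieces of 1 transcript was not tested. XLOC_026363, 47139 bp from Gata6, had a log2 fold of 5.29. XLOC_025374, the one at higher coordinates, had the lowest level, 0.00447 and 0.0426 FPKM, with a log2 fold of 5.01. Its mean is under 0.05 FPKM, where the spike-in SD is 0.85 (n = 19).

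The loci near Nkx2-5 had higher levels. All 6 were higher in the pellet by 2-fold or more after rescaling, and 4 on the FPKM scale. Without XLOC_022932, whose soluble value is near 0, the counts were 5 of 5 and 3. The most abundant in the pellet, XLOC_022935, had 0.557 FPKM in the soluble fraction and 5.14 FPKM in the pellet, a log2 fold of 4.96, against 13.54 FPKM for the Nkx2-5 message in the pellet. XLOC_022941 had 0.474 and 1.83 FPKM with a log2 fold of 3.71, and XLOC_022946 had 1.03 and 2.98 FPKM with 3.29. XLOC_022948, 63327 bp from Nkx2-5, had 2.73 and 3.35 FPKM with 2.05. XLOC_022933 (0.0584 and 0.0655 FPKM) had 1.92. XLOC_022932 had 0.140 FPKM in the pellet and almost no soluble value (8.18e-05 FPKM), so the size of its fold is not given. Except for XLOC_022948, these loci share 1 set of coordinates (26860287 to 26898273) with the lncRNAs Gm17382 (log2 fold 3.22) and Gm20468 (2.63).

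Near Gata4, 4 of 5 loci were higher in the pellet by 2-fold or more after rescaling, and on the FPKM scale 2 were higher and 1 lower. XLOC_016874 had 0.455 FPKM in the soluble fraction and 0.834 FPKM in the pellet, a log2 fold of 2.63, and was the only one to reach a mean of 0.5 FPKM. XLOC_016875 and XLOC_016876 had log2 folds of 3.62 and 3.92, and XLOC_017892 had 1.36. XLOC_016881 stood apart at -0.11, from 0.398 and 0.110 FPKM. All but XLOC_017892 share 1 set of coordinates (63317709 to 63345635) with each other and with 2 lincRNAs, so these values depend on how fragments were divided among them. The median of the 5 was 2.63, below the lower quartile of 2.85 over all Tbx5-dependent loci. Over the 3 genes, 21 of the 22 loci were higher in the pellet by 2-fold or more after rescaling, or 20 of 21 without XLOC_022932, close to the 93.5% of the class, so the direction is that of the class as a whole.

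**Figure D4:**
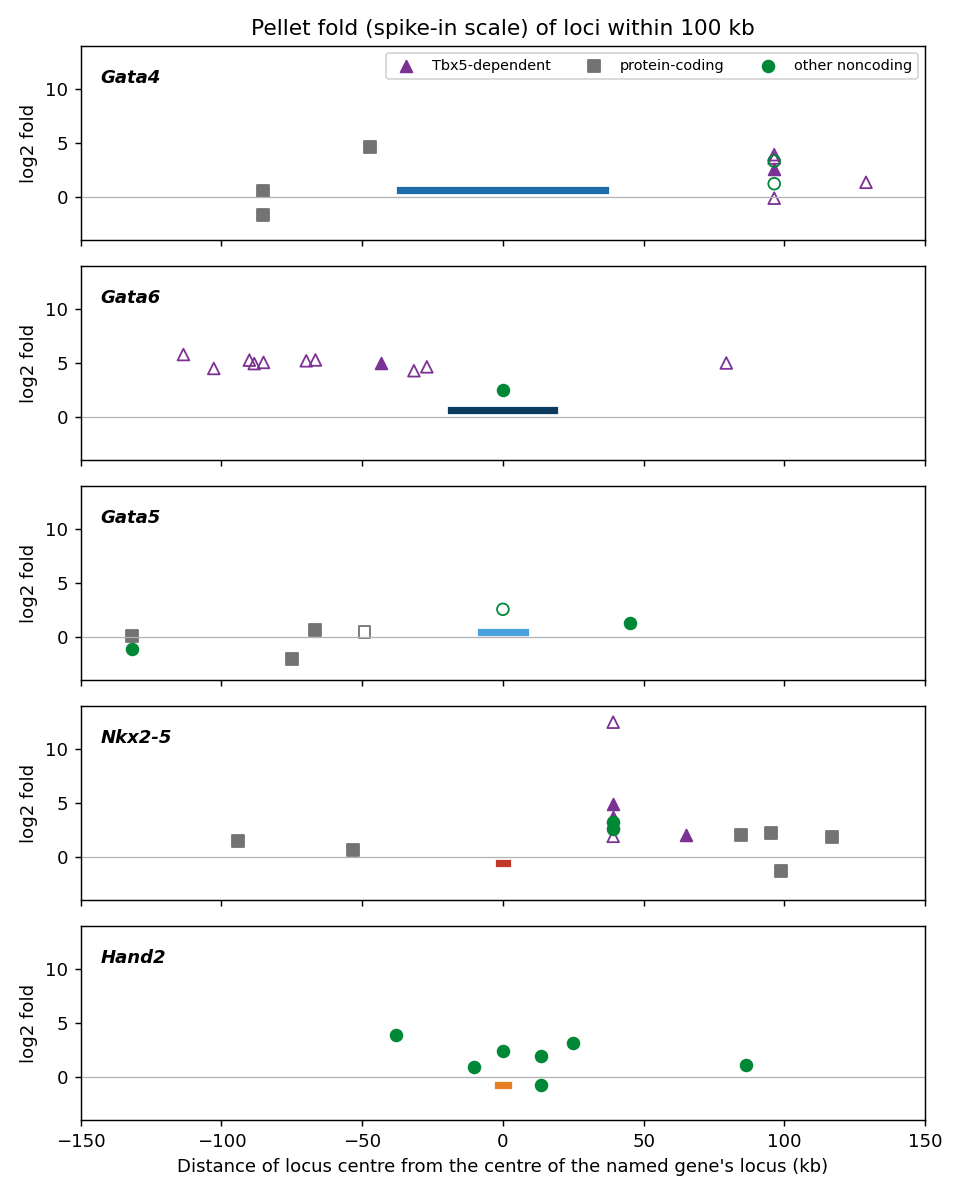
Log2 pellet over soluble after rescaling (vertical axis) of every locus within 100 kb of each gene, against the distance in kb between locus centres, with the gene drawn as a coloured bar of its own width; open symbols are loci with a mean under 0.5 FPKM, and the topmost one near Nkx2-5 is XLOC_022932, whose soluble value is close to 0. The Gata6 message at 0.62 lies under 11 Tbx5-dependent loci at 4.29 to 5.79, and Hand2 at -0.69 lies under 6 of its 7 noncoding neighbours.

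Most factors that work with Gata4, Nkx2-5 and Hand2 lay within 2-fold. Of 26 genes on this list 22 were tested, and 7 were higher in the pellet by 2-fold or more and 0 lower, beside 24.0% and 10.6% of tested protein-coding loci. The count of 7 is near that share. Their median log2 fold was 0.66, against 0.26 over tested protein-coding loci. The part of gene span in this median was not tested. On the FPKM scale 0 were higher and 11 lower, beside 2.25% and 68.2% of tested protein-coding loci, with a median of -1.09 against -1.49. The dimer partners of Hand2 differed from it and from each other. Tcf4 had 6.25 FPKM in the soluble fraction and 5.33 FPKM in the pellet, with the highest log2 fold of the list at 1.52. Tcf12 followed at 1.34 (22.9 and 17.2 FPKM). Tcf3 was balanced at -0.02 (17.3 and 5.06 FPKM). Hopx, an atypical homeodomain protein of the Nkx2-5 network, was lowest at -0.95 (14.95 and 2.30 FPKM).

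Relatives of the Gata genes were fewer. Of 8 Gata family and cofactor genes listed, 4 were tested and 0 were past 2-fold either way, beside 24.0% higher and 10.6% lower among tested protein-coding loci, with a median of -0.35 against 0.26. On the FPKM scale 4 of 4 were lower, beside 68.2%. With 4 genes these counts show nothing about the list. Gatad2b, of the NuRD complex, had 0.73 (25.1 and 12.3 FPKM), and its paralogue Gatad2a had -0.33 (18.2 and 4.27 FPKM). Gatad1 was lowest at -0.72 (43.1 and 7.75 FPKM). Gata2, a factor of blood and endothelium, had 1.15 FPKM in the soluble fraction and 0.265 FPKM in the pellet, with -0.36. Gata3 and Gata1 were below 0.5 FPKM. Of 7 other NK2 and Hand family genes, Nkx2-9 alone was found, at 0.0126 FPKM in the soluble fraction.

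Known cardiac target genes had a median on the soluble side after rescaling. Of 27 listed, 19 were tested, 7 were at least 2-fold lower in the pellet and 2 higher, beside 10.6% and 24.0% of tested protein-coding loci. Their median log2 fold was -0.69, against 0.26 over tested protein-coding loci. The median on the FPKM scale was -2.44, against -1.49. There 15 were lower and 0 higher, beside 68.2% and 2.25%, and 15 of 19 is near that share. Ankrd1, a nuclear ankyrin repeat protein, and Myh6, the alpha myosin heavy chain, were highest, both at 1.24 (100.6 and 70.4 FPKM for Ankrd1, 124.4 and 87.3 FPKM for Myh6). Sln, encoding the calcium pump inhibitor sarcolipin, was lowest at -1.55 (12.5 and 1.27 FPKM), followed by the atrial light chain gene Myl7 at -1.34 (1119 and 131.3 FPKM). Atp2a2, Cacna1c, Ryr2 and Slc8a1 were listed as targets but not found among the loci, so the median of the targets leaves them out. The part of gene span in that median was not tested. The lists hold known partners and targets in general, and their regulation in these cells was not measured.

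**Figure D5:**
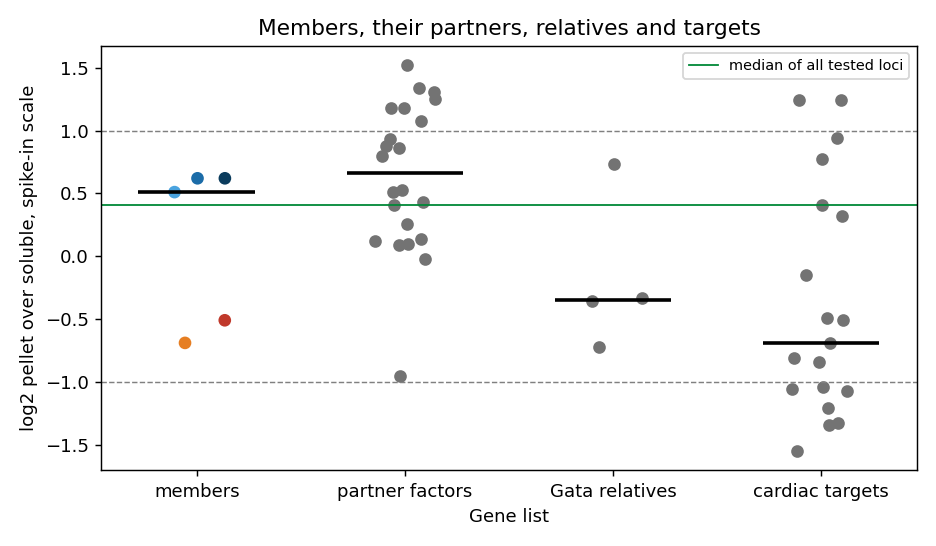
Log2 pellet over soluble after rescaling for the 5 genes, their partner factors (22 tested), Gata relatives (4 tested) and cardiac targets (19 tested); each point is a gene, black bars are list medians, the green line is the median of all tested loci and dashed lines mark 2-fold. The list medians are 0.66 for partners, -0.35 for relatives and -0.69 for targets.

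The cell label was checked against marker genes, since Gata4, Gata5 and Gata6 are also used outside heart muscle. Of 10 cardiomyocyte markers 8 were tested, led by Myl7 and by Tnnt2 at 1022 FPKM in the soluble fraction. The 8 summed to 3935 FPKM in the soluble fraction and 751.7 FPKM in the pellet. Actn2 was the lowest of them, at 4.67 FPKM in the soluble fraction. Ryr2 and Ttn were not found among the loci. Of 6 smooth muscle markers all were tested and summed to 2026 and 324.6 FPKM. Most of the soluble sum came from Acta2 (1539 FPKM) and Tagln (381.1 FPKM), while Cnn1 had 1.43 FPKM in the soluble fraction and Myh11 0.867 FPKM. Fibroblast markers (3 of 8 tested) summed to 346.9 and 88.4 FPKM, almost all from Col3a1 at 340.5 FPKM in the soluble fraction, while Lum was near 0. Markers of endothelium and endocardium (3 of 8 tested) summed to 20.2 and 8.16 FPKM, led by Npr3 at 13.1 FPKM, with Cdh5, Tie1 and Emcn near 0. Epicardium markers (1 of 5 tested, Wt1 at 1.80 FPKM), endoderm markers (2 of 6 tested, Foxa2 at 1.49 FPKM) and blood and immune markers (1 of 6 tested, Cd68 at 0.711 FPKM) each summed to under 3 FPKM in either fraction. In such bulk RNA, fewer cells of a type and less RNA per cell cannot be told apart.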

How the data were processed

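The authors deposited 1 table for 6 libraries, 3 per fraction, with 1 FPKM value per locus and fraction, per the file headers. Per the submitters' processing notes, the tools were Cuffdiff, Cufflinks, HISAT2, SAMtools and bedtools on mm10, without versions or roles. Per the file headers, the authors' rescaled pellet and total are a signal, the chromatin enrichment is a ratio, and both are also given as log10. Folds were recomputed from the FPKM columns with the least-squares spike-in slope (3.37, equal to the deposited factor). Of 30687 lines, 1945 repeated identifiers were dropped. Table starts count from 0 (82 of 82 spike-ins start there) and 1 was added. Testing required a mean of 0.5 FPKM or more, and 43.5% of these share coordinates with another locus. Neighbours were taken within 100 kb. No value was 0, no pseudocount was added, and depth is unknown. RefSeq names, spans and sequences are from GRCm38.p6, the assembly of mm10. Genes named are the members, the 2 highest and 2 lowest tested genes of each list, neighbours, the 3 protein-coding loci nearest in log2 FPKM of both fractions, and leading markers. Tbx5-dependent neighbours were named whatever their level. The values of 1 counted neighbour are not reported here. Gata3, Gata1, Nkx2-9, the markers near 0 or low, and the listed genes not found were named after the results were seen. Members and lists were chosen with earlier results of these data known. The planned limma fit was only for values per library. Alternatives were FPKM without the factor, a median spike-in ratio, a pseudocount of 0.1 FPKM, no level filter and a fold of 1.5. The fold and count functions were tested on simulated data. Python 3.11.15, pandas 2.3.3 and numpy 2.4.6 were used.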

Additional observations from a re-analysis of the deposited data

How the results depend on the processing

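Of 67 alternative values over 15 results, 40 kept their direction and stayed within the spike-in SD (folds) or within 1.5 times (counts), 24 moved and 3 turned. Without the spike-in factor, the log2 folds became -1.14 for Gata4, -1.25 for Gata5 and -1.14 for Gata6, which turned, and -2.26 for Nkx2-5 and -2.44 for Hand2. The members at least 2-fold lower in the pellet then numbered 5 instead of 0. The counts without the factor were 1344 higher and 8514 lower over all tested loci, 0 higher and 11 lower for partner factors, 0 higher and 15 lower for cardiac targets, and 4 lower for Gata relatives. At a fold of 1.5, 2 of 5 members (Gata4 and Gata6) were higher and 1 (Hand2) lower. Beside them, 6108 of the 13917 tested loci were higher and 2658 lower at that fold, so the member counts are read against many loci. Of 22 tested partner factors 11 were then higher and 1 lower, and of 19 cardiac targets 4 were higher and 10 lower. Of 4 Gata relatives 1 was higher and 1 lower. With no filter on low values, 14261 of all 28660 loci were higher and 2546 lower, against 4434 and 1467 of the 13917 tested loci. These counts are thus over a larger set. Among all listed genes found, 1 of 7 Gata relatives was then higher and 1 of 25 partner factors lower. Leaving out loci that share coordinates, an alternative chosen after seeing the data, gave 2129 higher and 967 lower. It removed 6055 of the 13917 tested loci, so these counts are over a smaller set. Neither a median spike-in ratio (3.50) nor a pseudocount of 0.1 FPKM moved any of the 15 results beyond these limits. No paired analysis was possible because the table has 1 pooled value per fraction, which also prevented leaving out replicates.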

Other observations

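Protein-coding neighbours of the 5 genes fell on both sides. Of 12 tested within 100 kb, 5 were higher in the pellet by 2-fold or more and 3 lower after rescaling, beside 24.0% and 10.6% of tested protein-coding loci. On the FPKM scale 1 was higher and 7 lower, beside 2.25% and 68.2%. Neil2, a DNA glycosylase gene 5381 bp from Gata4, had 0.835 FPKM in the soluble fraction and 6.25 FPKM in the pellet, a log2 fold of 4.66, the highest of the 12. The other neighbours of Gata4 were Fdft1 of cholesterol synthesis (0.52) and the lysosomal protease gene Ctsb (-1.63), which share coordinates. Near Gata5, the ribosomal protein gene Rps21 had -2.08 (888.3 and 62.2 FPKM), the laminin gene Lama5 had 0.11 and Cables2 had 0.66. The noncoding neighbours there were Mir7005, which shares coordinates with Lama5, at -1.13 and B230312C02Rik at 1.30. Near Nkx2-5, Crebrf (1.5), Kifc5b (2.02) and Phf1 (2.19) were past 2-fold towards the pellet, Bnip1 had 0.68 and Cuta was at -1.32.

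The protein-coding loci nearest to each member in log2 soluble and log2 pellet FPKM, a likeness over only 2 pooled values, were Cnot6, Iqgap1 and Mast2 for Gata4, at distances of 0.00898 to 0.0974 log2 units. For Gata5 they were Ddias, Rab40c and Papd7 (0.00151 to 0.0296), and for Gata6 Klhl24, Utp18 and Coq9 (0.00824 to 0.0272). For Nkx2-5 they were Pkia, Ddx1 and Sf3b2 (0.0305 to 0.0532), and for Hand2 Cdc42, Eif4a3 and Ppp1cb (0.00734 to 0.0586).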
